A study of Mus musculus with 20 samples.

Results

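Small RNA was sequenced from the hearts of C57BL/6J mice in a design with 2 factors, and the comparison here pools one of them: 11 infarcted hearts, 4 labelled MI and 7 labelled MI+CIH, were set against 9 uninfarcted hearts, 5 labelled sham and 4 labelled CIH. MI is myocardial infarction, sham is the uninfarcted control, and CIH is given as letters only and is read here as chronic intermittent hypoxia. The CIH exposure, shared by 11 hearts (7 infarcted and 4 uninfarcted), entered every fit as a second factor, so that the infarction difference is taken over both exposures. No genotype other than the strain, no age, no time after infarction, no infarct size and no part of the heart is given. Each value is a share of a library, in reads of a miRNA per 1000000 miRNA reads (RPM). Of 1545 entries in the table, 360 reached at least 5 RPM in at least 4 of the 20 libraries and were tested. Of these, 358 have miRBase names and 2 are predicted rows. Among the 360, 12 entries repeat another within 5% in every library, as miR-1b-5p does miR-1a-3p, and count again toward the 1000000. They held 7.79% (MI+CIH 5) to 29.6% (MI 2) of infarcted libraries and 19.3% (sham 1) to 31.6% (CIH 3) of uninfarcted ones.

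A miRNA is a short RNA cut by Drosha and Dicer from the arms of a hairpin, and it guides Argonaute to messages that pair with its seed, the bases near its 5′ end. Heart muscle is known for very high levels of miR-1 and the miR-133 family and for miR-208a and miR-499, which lie in introns of myosin heavy chain genes. After an infarct, leukocytes clear dead muscle and fibroblasts lay down scar, so a piece of infarcted heart can hold another mixture of cells. In whole tissue, fewer cells of a type and less RNA per cell cannot be told apart. Nothing says whether replicates are separate animals, so p-values measure the spread between these libraries.

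The libraries fell into 3 sets when clustered on all tested miRNAs, and the sets were drawn from the same values that are compared below. Set A contains every uninfarcted heart and 2 infarcted ones, MI 2 and MI+CIH 1. Hearts MI 1, MI 3 and MI+CIH 2 to 5 form set B. Hearts MI 4, MI+CIH 6 and MI+CIH 7 form set C. Pearson's r of log2(RPM + 1) was 0.908 to 0.994 for the 73 pairs of hearts that share a set and 0.71 to 0.932 for the 117 pairs that do not. Recovered reads summed to 1991323 to 18138415 per infarcted library and to 5700599 to 11985699 per uninfarcted library. Set B was the shallowest (1991323 to 9175110 reads), set C had 12177044 to 18138415 reads and set A had 5700599 to 18014081 reads. Every library carried the heart muscle miRNA miR-1a-3p at a high level, 69203 RPM or more in infarcted hearts and 189056 RPM or more in uninfarcted hearts. No uninfarcted heart is in set B or C, so there set and infarction cannot be told apart. The main results are therefore given both without the set and with the set as a term of the fit (the fit with sets). The fit with sets rests on MI 2 and MI+CIH 1 against the 9 uninfarcted hearts. Those 2 hearts are in set A because their profiles lie near the uninfarcted ones, so small differences within set A follow in part from how the set was drawn.

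The mature sequences below, from RefSeq for GRCm38.p6, are those the comparison turns on, written 5′ to 3′ with the seed, bases 2 to 8, in capitals. They are shown by family because members with the same seed are read as having the same targets. The first 9 share the let-7 seed, the next 3 share the miR-125 seed, and 3 more share the miR-29 seed.
let-7a-5p: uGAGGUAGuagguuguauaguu
let-7b-5p: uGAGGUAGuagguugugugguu
let-7c-5p: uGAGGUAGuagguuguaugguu
let-7d-5p: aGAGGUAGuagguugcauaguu
let-7e-5p: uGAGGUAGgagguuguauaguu
let-7f-5p: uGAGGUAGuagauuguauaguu
let-7g-5p: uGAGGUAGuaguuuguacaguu
let-7i-5p: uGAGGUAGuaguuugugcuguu
miR-98-5p: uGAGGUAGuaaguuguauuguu
miR-125a-5p: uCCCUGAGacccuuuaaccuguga
miR-125b-5p: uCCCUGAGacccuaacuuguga
miR-351-5p: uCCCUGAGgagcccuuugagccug
miR-29a-3p: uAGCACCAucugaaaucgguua
miR-29b-3p: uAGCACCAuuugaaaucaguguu
miR-29c-3p: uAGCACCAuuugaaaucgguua
miR-101a-3p: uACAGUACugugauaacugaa
miR-101b-3p: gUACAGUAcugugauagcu
miR-499-5p: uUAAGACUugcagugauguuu
miR-206-3p: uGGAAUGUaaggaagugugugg
miR-146a-5p: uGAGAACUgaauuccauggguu
miR-146b-5p: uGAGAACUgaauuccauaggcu
miR-214-3p: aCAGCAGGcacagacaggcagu
In the RefSeq entries miR-101b-3p begins 1 base earlier than miR-101a-3p on an otherwise shared start, so its bases 2 to 8 differ while the seed letters of miR-101a-3p occur in both. These miRNAs are spread over the genome. let-7e and miR-125a lie on the plus strand at chr17:17830366-17830387 and chr17:17830817-17830840, in an intron and an exon of Spaca6. miR-499 lies in an intron of Myh7b (chr2:155622893-155622913, plus strand), a myosin gene, and miR-214 lies in an exon of Dnm3os (chr1:162223438-162223459, plus strand), the antisense transcript that also carries miR-199a. let-7b and a copy of let-7c lie in exons of Lncppara on chromosome 15, and miR-98 and a copy of let-7f lie in an intron of Huwe1 on chromosome X. miR-101a is in an exon of E130102H24Rik (chr4:101346957-101346977, minus strand), miR-101b is in an intron of Rcl1 on chromosome 19, and miR-206 (chr1:20679055-20679076, plus strand) is in an exon of Gm28653.

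In infarcted hearts most miRNAs took a larger share of the library. A few took a smaller share, among them the most abundant, miR-1a-3p, with its repeated entry miR-1b-5p. limma on log2(RPM + 1), with hypoxia as a second factor and p adjusted by Benjamini-Hochberg over the 360, called 222 miRNAs higher (61.7%) and 16 lower (4.44%) at an adjusted p under 0.05, together 238 (66.1%). The median difference, infarcted minus uninfarcted, was 1.28 on the log2 scale, and 311 of 360 differences were positive. For 73 of the 360 no uninfarcted heart reached 5 RPM, so they passed the filter through infarcted hearts alone and a higher value there was built in: 64 of the 73 were called higher and none lower. Over the other 287, 158 were called higher (55.1%) and 16 lower, with a median difference of 1.04. Of those named below, miR-206-3p, miR-210-5p, miR-34b-3p, miR-34c-3p and miR-375-3p are among the 73, as are arms of some hairpins. RPM values are shares, so a lower share for a very abundant miRNA goes with higher shares for the rest. After median-of-ratios scaling, which takes most miRNAs as level, the same fit called 86 higher (23.9%) and 67 lower (18.6%), and the median difference was 0.11. Of the 222 called higher, 86 were called higher, 1 was called lower and 31 were negative under that scaling, whereas all 16 called lower were called lower again. Values below are differences of RPM shares, and each is also read against the median of 1.28.

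None of these calls held with the set as a term. limma then called none of the 360 in either direction (0%), 15 had an unadjusted p under 0.05, and the smallest adjusted p was 0.889. The median difference was then 0.18, with 236 of 360 positive. Of the 222 called higher without the set, 167 were still positive with it, and of the 16 called lower, 11 were still negative. For 193 of the 238 called, the interval of the difference with the set did not hold the difference without it. Within set A the limma fit made 0 calls, and 16 miRNAs had an unadjusted p under 0.05. Leaving sham 1 out of set A as well gave 7 calls (1.94%), 2 of them higher (let-7i-5p and miR-34c-5p) and 5 lower, an alternative added after the data had been seen. Sham 1 was the highest uninfarcted heart for both miRNAs called higher, so those calls follow in part from leaving it out. The edgeR quasi-likelihood test on recovered reads, without the set, called 81 higher and 51 lower, and DESeq2 called 118 higher and 53 lower.

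**Figure D1:**
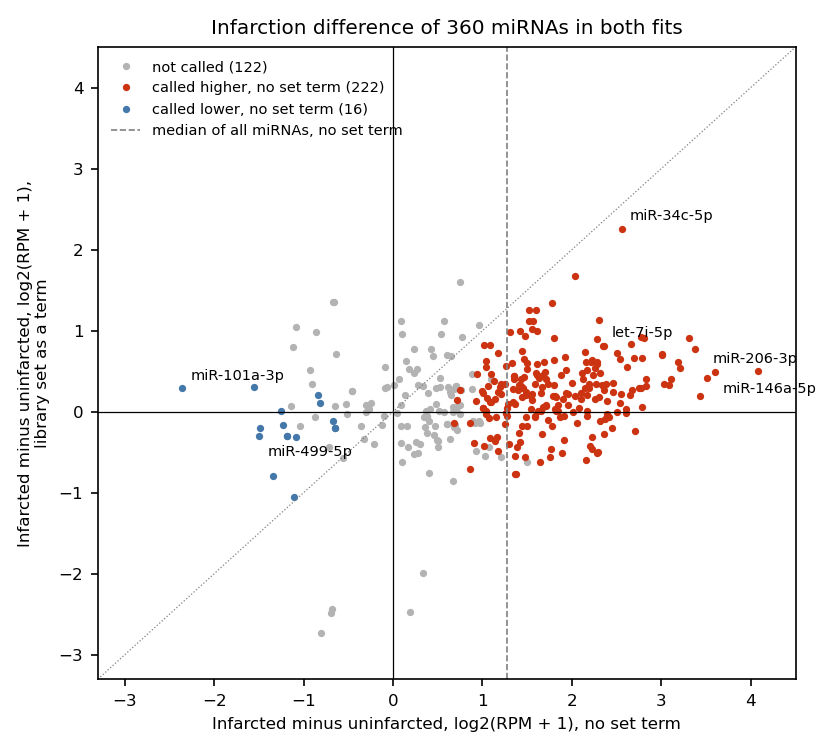
Each point is 1 of the 360 miRNAs. The horizontal axis is the log2 difference, infarcted minus uninfarcted, without the library set, and the vertical axis is the same difference with the set as a term. The cloud is centred on 1.28 along the horizontal axis (dashed line) and on 0.18 along the vertical axis, and miR-34c-5p, at 2.56 and 2.26, lies near the dotted line of equal values.

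The infarcted hearts did not move as a block. Of the 222 miRNAs called higher, the number above every uninfarcted heart was 206, 9, 190 and 124 in MI 1 to MI 4. In MI+CIH 1 to MI+CIH 7 it was 64, 201, 203, 187, 214, 146 and 148. The 6 hearts of set B thus passed the whole uninfarcted range for most of these miRNAs, the 3 hearts of set C for fewer, MI+CIH 1 for fewer still and MI 2 for very few. The 222 were called from these same hearts, and 64 of them passed the filter through infarcted hearts alone. High counts were thus in part built in, and the counts are a description. Among the uninfarcted hearts, sham 1 was above the other 8 in 100 of the 222, and the others were so in 2 to 40. Of the 16 miRNAs called lower, the number below every uninfarcted heart was 16 in MI+CIH 3 and MI+CIH 4, 2 in MI 2, and 4 to 14 in the other 8 infarcted hearts. With both sham 1 and MI 2 left out, limma called 235 higher and 16 lower. For the miRNAs called higher, sham 1 had the highest count of the uninfarcted hearts and MI 2 the lowest of the infarcted ones. The larger number called higher thus follows in part from which hearts were left out.

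**Figure D2:**
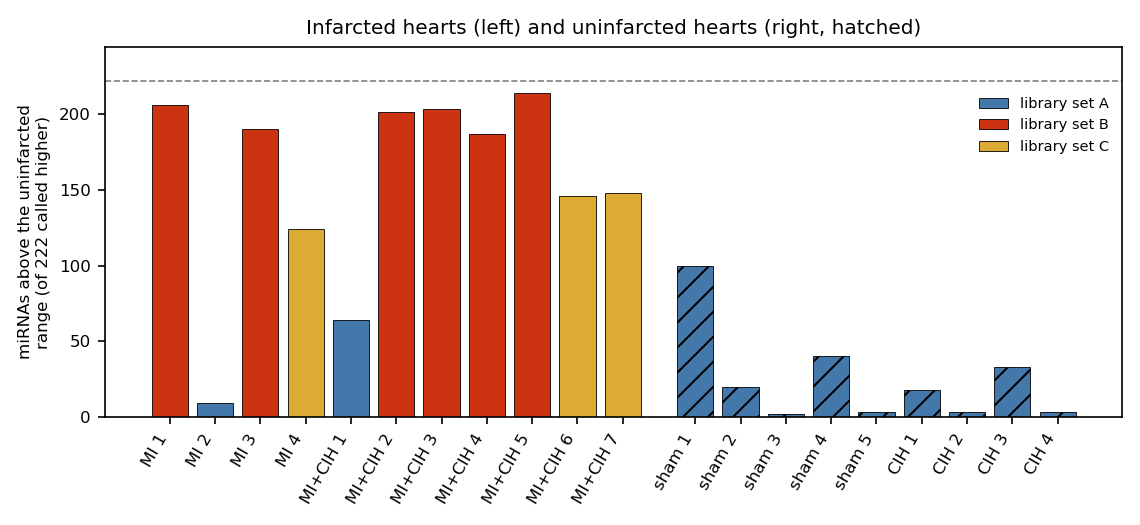
Bars give, for each infarcted heart, how many of the 222 miRNAs called higher were above every uninfarcted heart and, for each uninfarcted heart (hatched), how many were above the other 8. Colours mark the library sets and the dashed line marks the 222, which were called from these same hearts. Bars reach 187 to 214 for the set B hearts and 124 to 148 for those of set C, against 9 for MI 2, 64 for MI+CIH 1 and 100 for sham 1.

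Only 4 of the 360 miRNAs (1.11%) were higher in every infarcted heart than in every uninfarcted heart, and none was lower in every one. Both infarcted hearts of set A are above the uninfarcted range for these 4. They were picked out after their values were seen. miR-125a-5p, of the family that includes the worm developmental timer lin-4, had 146, 1477 and 4617 RPM (lowest, median and highest heart, the order used from here on) in infarcted hearts and 76.4, 103 and 130 RPM in uninfarcted hearts. miR-181a-5p, known for its part in lymphocyte development, had 570, 1979 and 5436 RPM in infarcted hearts and 243, 429 and 509 RPM in uninfarcted hearts. The gap between the groups was narrow in both, since the lowest infarcted heart was MI+CIH 1 at 146 RPM for miR-125a-5p and MI 2 at 570 RPM for miR-181a-5p. miR-185-5p had 143, 229 and 930 RPM in infarcted hearts and 69.6, 94.4 and 127 RPM in uninfarcted hearts. miR-361-3p had 36.4, 129 and 195 RPM in infarcted hearts and 20.1, 31.5 and 33.3 RPM in uninfarcted hearts. With the set as a term their differences were 0.54, 0.61, 0.59 and 0.45, and the interval of each included 0. After median-of-ratios scaling miR-125a-5p (1.88, limma adjusted p = 0.00245) and miR-181a-5p (0.89, adjusted p = 0.00483) were called higher, and miR-185-5p (0.29) and miR-361-3p (0.58) were not.

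The let-7 family, the textbook group of miRNAs that mark differentiated cells and restrain growth, was the list with the highest median. All 9 tested members rose (100%, against 61.7% of all 360), with a median difference of 2.67 against 1.28 over all 360. All 9 stayed positive under every scaling, with 8 called higher after median-of-ratios scaling (88.9%, against 23.9% over all). Calls of higher were 7 after TMM scaling, 8 by edgeR and 9 by DESeq2. let-7c-5p had 1116, 9102 and 39876 RPM in infarcted hearts and 850, 976 and 1289 RPM in uninfarcted hearts. Every infarcted heart but MI 2, at 1116 RPM, was above the uninfarcted range, and its log2 difference was 3.09 ± 0.51 (SE, limma adjusted p = 0.000165). let-7f-5p, the most abundant member, had 5624, 21538 and 42346 RPM in infarcted hearts and 3698, 4394 and 5649 RPM in uninfarcted hearts. let-7a-5p had 1068, 10896 and 24558 RPM in infarcted hearts and 842, 929 and 1181 RPM in uninfarcted hearts. Each had 10 of 11 infarcted hearts above all uninfarcted ones, and the differences were 2.11 ± 0.33 for let-7f-5p and 2.67 ± 0.50 for let-7a-5p. The largest differences of the family were those of let-7e-5p (3.51 ± 0.66) and let-7b-5p (3.43 ± 0.63), and the smallest was that of miR-98-5p (1.81 ± 0.35). let-7e-5p had 61.6, 1436 and 4624 RPM in infarcted hearts and 42.2, 61.2 and 151 RPM in uninfarcted hearts, with sham 1 the uninfarcted heart at 151 RPM. let-7i-5p, which had the smallest p of all 360, had 2114, 8712 and 12902 RPM in infarcted hearts and 1072, 1391 and 2924 RPM in uninfarcted hearts. Its difference was 2.35 ± 0.33 (limma adjusted p = 0.000133), and again only 1 infarcted heart, MI 2 at 2114 RPM, was within the uninfarcted range, which sham 1 extends. let-7d-5p and let-7g-5p rose by 2.79 and 2.19. In the fit that holds the sets, the 9 differences had a median of 0.33, all positive and none called.

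The 3 members with the miR-125 seed all rose, by 3.21 (miR-125a-5p), 2.40 (miR-125b-5p) and 2.46 (miR-351-5p), and so did the 3 with the miR-99 seed, by 1.62 (miR-99a-5p), 1.67 (miR-99b-5p) and 1.18 (miR-100-5p). Apart from miR-351, these are the partners of let-7 in shared clusters: let-7e, miR-99b and miR-125a are neighbours on chromosome 17, and copies of let-7c and miR-125b lie in Mir99ahg on chromosome 16. Over the list of miR-99, miR-100 and miR-125 arms, 7 of 8 rose (87.5%, against 61.7% of all 360) and none fell. Of the 8, 1 had no uninfarcted heart at 5 RPM, and of the other 7, 6 rose (85.7%, against 55.1% of the 287). miR-125b-2-3p, at -0.25 ± 0.45, did not pass the test. miR-99a-5p had 6165, 22763 and 39086 RPM in infarcted hearts and 5095, 6372 and 8877 RPM in uninfarcted hearts. miR-351-5p, of the X-linked cluster with miR-322 and miR-503, had 6.28, 47.7 and 60.1 RPM in infarcted hearts and 3.86, 5.26 and 7.41 RPM in uninfarcted hearts. miR-125b-5p was below the uninfarcted range in MI 2 (548 RPM) and above it in the other 10 infarcted hearts, up to 17046 RPM. After median-of-ratios scaling 2 of the 8 were called higher (25%, against 23.9% over all). miR-125b-2-3p was called lower, and miR-100-5p turned to -0.15. Given the library sets, the median of the list was 0.18.

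The muscle-enriched miRNAs split. Of 10 tested, 3 rose (30%, against 61.7% of all 360) and 4 fell (40%, against 4.44%), with a median of -0.28 against 1.28 over all. The 4 count miR-1a-3p and its repeat miR-1b-5p separately. Without miR-206-3p, which passed the filter through infarcted hearts alone, 2 of 9 rose (22.2%, against 55.1% of the 287). Under median-of-ratios scaling 1 rose (10%, against 23.9%) and 5 fell (50%, against 18.6%), with a median of -1.54. miR-1a-3p, the most abundant miRNA of the table and a driver of muscle differentiation, had 69203, 161002 and 293893 RPM in infarcted hearts and 189056, 268876 and 314224 RPM in uninfarcted hearts. Its difference was -0.65 ± 0.26 (limma adjusted p = 0.0306), and 7 of 11 infarcted hearts were below every uninfarcted one, while MI 2, at 293893 RPM, was among the highest of all hearts. miR-1b-5p repeats the reads of miR-1a-3p and gave the same difference. miR-499-5p, which comes from the myosin gene Myh7b, had 419, 1202 and 3920 RPM in infarcted hearts and 1751, 3839 and 4598 RPM in uninfarcted hearts. All infarcted hearts but MI 2 were below the uninfarcted range, and its difference was -1.50 ± 0.36 (adjusted p = 0.00182). miR-208a-3p, from the Myh6 intron, had 3.01, 28.6 and 100 RPM in infarcted hearts and 30.9, 71.2 and 100 RPM in uninfarcted hearts, with a difference of -1.14 ± 0.52 that missed the threshold (adjusted p = 0.0567). miR-208b-3p, from Myh7, the slow myosin gene that rises in stressed mouse heart, did not pass the test (0.09 ± 0.51), and its highest values were 99.3 RPM in MI+CIH 1 and 41.7 RPM in sham 1.

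The muscle miRNAs that rose under RPM were miR-133a-3p, miR-208a-5p and miR-206-3p, of which median-of-ratios scaling kept the call of miR-206-3p alone. miR-133a-3p, made with miR-1a from the same transcripts, had 2776, 8427 and 23097 RPM in infarcted hearts and 1533, 2704 and 3637 RPM in uninfarcted hearts, a difference of 1.71 ± 0.39 (limma adjusted p = 0.00125). Its other arm, miR-133a-5p, fell by 0.82, and miR-208a-5p rose by 2.21 while miR-208a-3p did not pass the test. miR-133b-3p differed by 0.37 ± 0.48. No uninfarcted heart reached 5 RPM of miR-206-3p, a miRNA of skeletal muscle and regenerating fibres, so it passed the filter through infarcted hearts alone and its difference of 4.08 ± 0.94 is a description. It had 0.138, 33.7 and 437 RPM in infarcted hearts and 0, 0.135 and 4.74 RPM in uninfarcted hearts. MI 3 and MI+CIH 2 to 7 were above the uninfarcted range, while MI 1, MI 2, MI 4 and MI+CIH 1 had 2.29, 0.138, 0.882 and 2.44 RPM. CIH 3 supplied the 4.74 RPM, and the other 8 uninfarcted hearts were at or below 0.183 RPM, which is under 3 reads in each. Allowing for the sets, the muscle list had a median of 0.04, miR-499-5p differed by -0.30 and miR-206-3p by 0.50, and none was called.

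**Figure D3:**
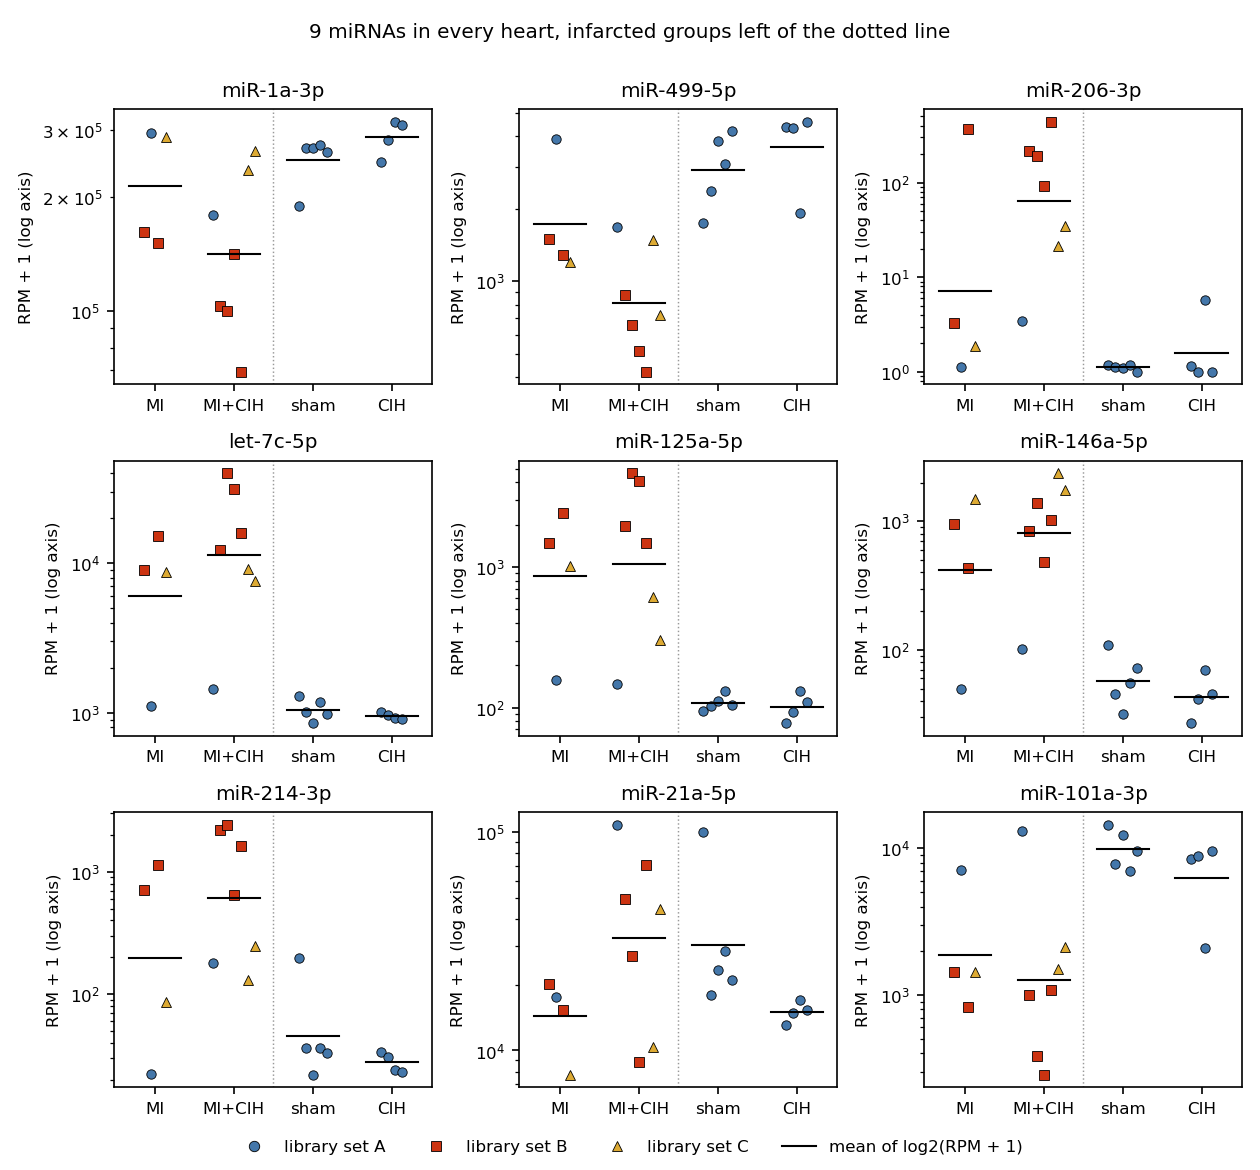
Each point is 1 heart, on a log axis of RPM + 1, and bars are the means of log2(RPM + 1) of the MI, MI+CIH, sham and CIH hearts. Shapes and colours mark the library sets. For let-7c-5p, miR-146a-5p and miR-499-5p, MI 2 (the set A point of the MI group) lies within the uninfarcted range, and sham 1 lies far above the other uninfarcted hearts in the panels of miR-21a-5p (100570 RPM) and miR-214-3p (198 RPM).

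In the miR-199 and miR-214 cluster, which marks mesenchymal cells, 4 of 5 tested rose (80%, against 61.7% of all 360) and none fell, with a median of 2.24 against 1.28 over all. miR-214-3p had 21.3, 643 and 2407 RPM in infarcted hearts and 21, 32.4 and 198 RPM in uninfarcted hearts, a difference of 3.37 ± 0.73 (limma adjusted p = 0.000854). The groups overlapped, since MI 2 had 21.3 RPM and sham 1 had 198 RPM, and without sham 1 and MI 2 the difference was 4.16. MI 2 was the lowest infarcted and sham 1 the highest uninfarcted heart, so leaving them out raises the difference by construction. miR-199a-3p had 241, 1940 and 4539 RPM in infarcted hearts and 134, 313 and 1055 RPM in uninfarcted hearts, and miR-199a-5p had 55.7, 621 and 2035 RPM in infarcted hearts and 29.3, 77.6 and 590 RPM in uninfarcted hearts. Again sham 1 was the highest uninfarcted heart in both, and they differed by 2.24 ± 0.50 and 2.03 ± 0.62. miR-199b-5p, at 0.75 ± 0.85, did not pass the test. In the fit with sets the cluster's median was 0.84, all 5 positive and none called. Under median-of-ratios scaling 2 of 5 were called higher (40%, against 23.9% over all) and miR-199b-5p turned to -0.31.

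Of 8 tested arms on the list of miRNAs raised in injured or stressed hearts, 5 rose (62.5%, close to the 61.7% over all 360), 1 fell and 2 did not pass, with a median of 1.92. Under median-of-ratios scaling 2 rose (25%, against 23.9% over all) and 2 fell (25%, against 18.6%). Of the 8, 2 (miR-34b-3p and miR-34c-3p) had no uninfarcted heart at 5 RPM, and of the other 6, 3 rose (50%, against 55.1% of the 287). miR-21a-5p, the miRNA most often reported to rise in cardiac fibroblasts after injury, had 7732, 20198 and 108142 RPM in infarcted hearts and 13116, 17878 and 100570 RPM in uninfarcted hearts, a difference of 0.10 ± 0.48 (limma adjusted p = 0.856). Both groups covered nearly the same range, with MI+CIH 1 and sham 1, both of set A, at the top. After TMM scaling its difference was -1.40 and it was called lower (adjusted p = 0.0377). miR-22-3p, abundant in heart muscle, fell by 1.49. It had 520, 5701 and 12524 RPM in infarcted hearts and 6684, 12611 and 15041 RPM in uninfarcted hearts, and 6 infarcted hearts were below the uninfarcted range. The miR-34 arms, induced by p53, rose under RPM, and after median-of-ratios scaling all stayed positive. miR-34a-5p had 17.8, 69 and 150 RPM in infarcted hearts and 8.99, 21.6 and 31.8 RPM in uninfarcted hearts. miR-34c-5p had 28.3, 106 and 1027 RPM in infarcted hearts and 9.45, 15.4 and 124.7 RPM in uninfarcted hearts. miR-34a-5p differed by 1.61 ± 0.40 and miR-34c-5p by 2.56 ± 0.60 (adjusted p = 0.00199 and 0.00146), and 9 and 5 of 11 infarcted hearts were above the uninfarcted range, which sham 1 set at 31.8 and 124.7 RPM. With library sets in the fit miR-34c-5p differed by 2.26 (95% interval 0.27 to 4.25), although no adjusted p with the set was below 0.889.

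The miR-29 family, known to repress collagen messages and to fall in the border of mouse infarcts, did not move together under RPM. miR-29a-3p, with 101, 442 and 2066 RPM in infarcted hearts and 115, 324 and 469 RPM in uninfarcted hearts, differed by 0.70 ± 0.53 (limma adjusted p = 0.242). miR-29b-3p differed by -0.27 ± 0.51, and miR-29c-3p fell by 1.24 (SE 0.46, adjusted p = 0.0241), with 0.502, 7.19 and 17.7 RPM in infarcted hearts and 5.22, 19.8 and 32.6 RPM in uninfarcted hearts. Infarcted hearts were thus more scattered for miR-29a-3p, 5 above and 1 below the uninfarcted range, while 5 were below it for miR-29c-3p. miR-29c-5p, at 0.51 ± 0.31, did not pass the test. The 3 mature sequences share their seed, as printed above, and the median over 5 tested arms was -0.27 against 1.28 over all. Under RPM none of the 5 rose (0%, against 61.7% of all 360) and 1 fell (20%, against 4.44%). After median-of-ratios scaling none was positive and 3 fell (60%, against 18.6%), with a median of -1.43. miR-101a-3p had the largest fall of all 360, 2.35 (SE 0.55, adjusted p = 0.00146), with 284, 1425 and 13192 RPM in infarcted hearts and 2100, 8902 and 14451 RPM in uninfarcted hearts. miR-101b-3p fell by 1.56. The 9 infarcted hearts of sets B and C had 284 to 2131 RPM of miR-101a-3p, while MI 2 and MI+CIH 1 had 7117 and 13192 RPM. Both differences changed sign in the fit with sets, to 0.29 and 0.30.

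Lists of markers of other cells differed in how many members were called, and none of them was tested against the other miRNAs. Of 9 tested leukocyte arms, 7 rose (77.8%, against 61.7% of all 360) and 1 fell, with a median of 1.77 under RPM. Of the 9, 1 had no uninfarcted heart at 5 RPM, and of the other 8, 6 rose (75%, against 55.1% of the 287). After median-of-ratios scaling the median was 0.45, and 3 were called higher (33.3%, against 23.9% over all) and 1 lower. Their summed level was 378, 2945 and 4488 RPM in infarcted hearts and 380, 576 and 808 RPM in uninfarcted hearts. miR-146a-5p, induced by inflammatory signals in myeloid and lymphoid cells, had 48.8, 953 and 2356 RPM in infarcted hearts and 25.9, 44.7 and 107 RPM in uninfarcted hearts. Its difference was 3.597 ± 0.59 (limma adjusted p = 0.000165), and 9 infarcted hearts, all of sets B and C, were above the uninfarcted range. miR-146b-5p, with the same seed, had 103, 416 and 1628 RPM in infarcted hearts and 57.9, 84 and 194 RPM in uninfarcted hearts, a difference of 2.31 ± 0.41. miR-223-3p, the myeloid miRNA, had 5.66, 24.1 and 84.3 RPM in infarcted hearts and 5.31, 6.59 and 12.9 RPM in uninfarcted hearts (1.64 ± 0.40). miR-150-5p, of mature lymphocytes, had 54, 543 and 1648 RPM in infarcted hearts and 42.2, 103 and 173 RPM in uninfarcted hearts (1.77 ± 0.66), and miR-155-5p, of activated leukocytes, rose by 2.36. miR-142a-5p, found in all blood cells, fell by 1.09. Once sets entered the fit the leukocyte median was 0.25 and miR-150-5p and miR-155-5p turned to -0.46 and -0.28.

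Of 6 erythroid entries, 3 rose (50%, against 61.7% of all 360) and 1 fell under RPM. After median-of-ratios scaling none rose (0%, against 23.9% over all) and 2 fell (33.3%, against 18.6%). The 3 that rose are entries of miR-486, which muscle also makes, and miR-486b-3p repeats the reads of miR-486a-5p. miR-486a-5p had 300, 2616 and 10305 RPM in infarcted hearts and 246, 494 and 702 RPM in uninfarcted hearts, a difference of 2.29 ± 0.59 (limma adjusted p = 0.00266). miR-451a, the red cell miRNA made without Dicer, did not follow, with 95.7, 1623 and 5680 RPM in infarcted hearts and 307, 1080 and 3078 RPM in uninfarcted hearts (0.09 ± 0.52), and miR-144-5p, from the same transcript, fell by 1.11. Given the library sets, all 6 entries were negative, with a median of -0.48. Of the 3 endothelial arms none rose and 1 fell (33.3%, against 4.44% of all 360), and after median-of-ratios scaling 2 fell (66.7%, against 18.6%). miR-126a-3p had 2875, 5661 and 49894 RPM in infarcted hearts and 5487, 7680 and 9206 RPM in uninfarcted hearts (0.25 ± 0.47), with 3 infarcted hearts above and 5 below the uninfarcted range. miR-126a-5p fell by 1.19 (adjusted p = 0.0031), with miR-126b-3p a repeat of it, and miR-126b-5p differed by -0.72 ± 0.66. Of 4 smooth muscle arms 1 rose (25%, against 61.7% of all 360) and none fell under RPM. With median-of-ratios scaling none rose (0%, against 23.9% over all) and 2 fell (50%, against 18.6%), with a median of -0.99. miR-143-3p, the most abundant miRNA after miR-1a-3p and its repeat, and a product of smooth muscle, had 24478, 157209 and 269317 RPM in infarcted hearts and 133678, 206780 and 260901 RPM in uninfarcted hearts, and missed the threshold at -0.88 ± 0.41 (adjusted p = 0.0645). miR-145a-5p, from the same transcript, rose by 1.48 under RPM, turned to -0.01 under TMM scaling and to -0.10 in edgeR, and miR-145a-3p differed by -0.10.

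Of 7 miRNAs best known from epithelia 6 rose (85.7%, against 61.7% of all 360), with a median of 2.36 under RPM. Of the 7, 2 had no uninfarcted heart at 5 RPM, and of the other 5, 4 rose (80%, against 55.1% of the 287). After median-of-ratios scaling the median was 1.083, with 3 of 7 called higher (42.9%, against 23.9% over all) and none lower. miR-200b-3p had 14.1, 160 and 547 RPM in infarcted hearts and 6.5, 12.1 and 54 RPM in uninfarcted hearts, and miR-200c-3p had 4.42, 44.2 and 244 RPM in infarcted hearts and 1.62, 3.07 and 12.4 RPM in uninfarcted hearts. They rose by 2.36 ± 0.61 and 3.03 ± 0.64 (limma adjusted p = 0.00249 and 0.000732), and miR-200a-3p rose by 1.78. miR-375-3p, a miRNA of endocrine and epithelial cells, had 0.345, 17.9 and 101 RPM in infarcted hearts and 0, 0.293 and 3.77 RPM in uninfarcted hearts. It passed the filter through infarcted hearts alone, and its difference of 2.83 ± 0.58 is a description. miR-203-3p, of stratified epithelium, differed by 0.61 ± 0.29 and did not pass. The summed level of the list was 119, 541 and 1150 RPM in infarcted hearts and 74.9, 93.7 and 213 RPM in uninfarcted hearts. The part of these cells, of leukocytes and of the library set in the other differences was not tested. Allowing for the sets, the median of the list was 0.34.

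**Figure D4:**
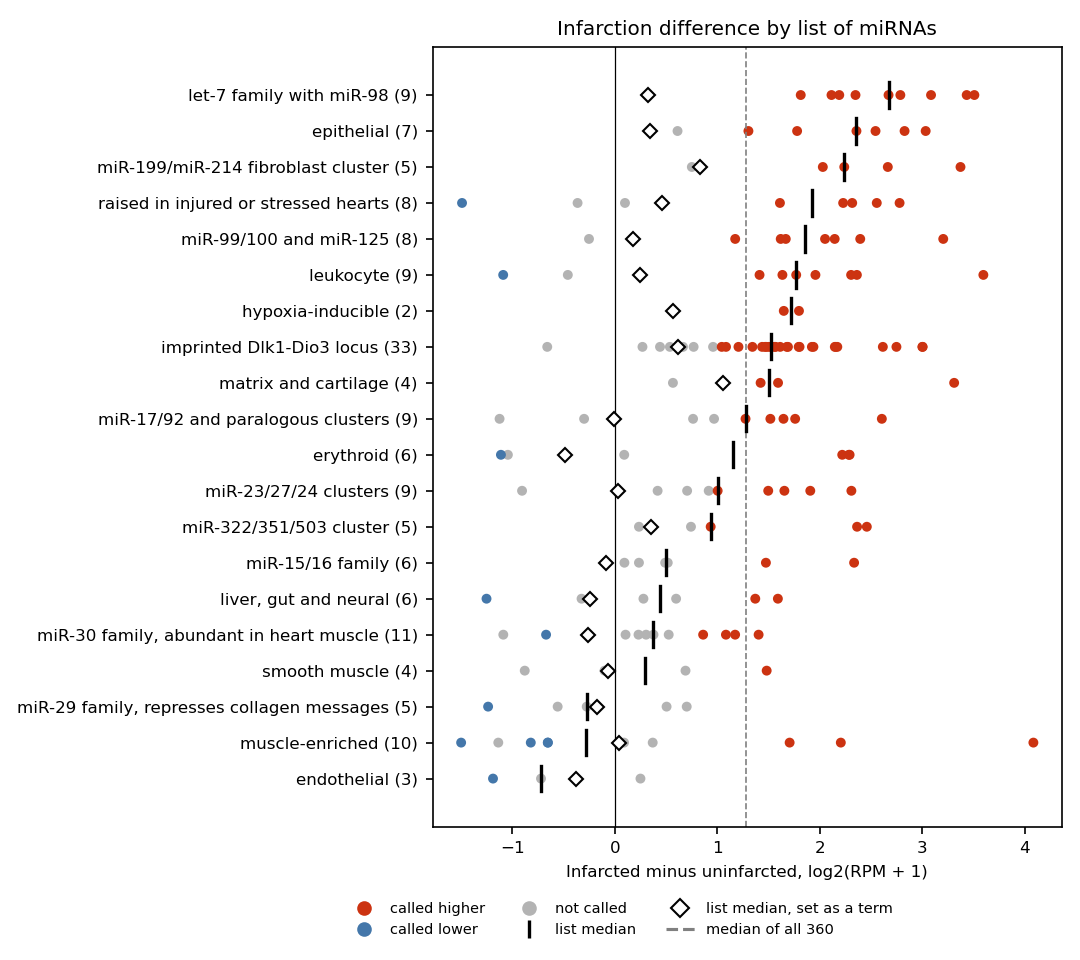
Points are the tested members of 20 lists of miRNAs, along an axis of log2(RPM + 1) difference, infarcted minus uninfarcted, coloured by call; bars are the list medians and diamonds are the medians with the library set as a term. The let-7 family is at the top with a median of 2.67, the endothelial list at the bottom with -0.72, and the diamonds lie between -0.48 and 1.06 while the median of all 360 without the set is 1.28 (dashed line).

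The imprinted Dlk1-Dio3 locus on mouse chromosome 12, a long maternally expressed cluster of miRNAs that is high in fetal tissue, gave the longest list. Of 33 tested, 25 rose (75.8%, against 61.7% of all 360) and none fell, with a median of 1.52 against 1.28 over all. For 11 of the 33 no uninfarcted heart reached 5 RPM, and of the other 22, 14 rose (63.6%, against 55.1% of the 287). miR-127-3p, the most abundant, had 237, 3120 and 6109 RPM in infarcted hearts and 169, 268 and 833 RPM in uninfarcted hearts, a difference of 2.62 ± 0.55 (limma adjusted p = 0.000708). miR-379-5p differed by 1.79 ± 0.50 and had 132, 578 and 1592 RPM in infarcted hearts and 79.2, 120 and 715 RPM in uninfarcted hearts. miR-541-5p rose by 3.00 ± 0.46, with 5.94, 71.8 and 105 RPM in infarcted hearts and 3, 5.08 and 13.5 RPM in uninfarcted hearts, and miR-382-5p rose by 3.00 ± 0.60. Sham 1 was the highest uninfarcted heart for all 4. miR-411-5p, at 0.77 ± 0.39, and miR-136-3p, at -0.66 ± 0.53 the only negative member, did not pass. After median-of-ratios scaling 10 of 33 were called higher (30.3%, against 23.9% over all) and 1 lower. In the fit with sets 32 of 33 were positive, with a median of 0.61 and none called.

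Cardiomyocytes make members of the miR-30 family in quantity, and these are known to restrain connective tissue growth factor there. Their median was 0.38 against 1.28 over all. Of 11 tested, 4 rose (36.4%, against 61.7% of all 360) and 1 fell under RPM. Under median-of-ratios scaling none rose (0%, against 23.9% over all) and 6 fell (54.5%, against 18.6%). miR-30d-5p had 15619, 31977 and 49270 RPM in infarcted hearts and 16049, 20885 and 31264 RPM in uninfarcted hearts (0.53 ± 0.24, limma adjusted p = 0.0538). miR-30a-5p differed by 0.23 ± 0.30 and miR-30e-5p by -1.09 ± 0.51. The direction of the abundant members therefore turned with the scaling, and miR-30a-5p and miR-30d-5p were called lower after it, at -1.10 and -0.80 (limma adjusted p = 0.0381 and 0.0299). The same held for other abundant miRNAs: miR-378a-3p (0.40), miR-26a-5p (0.71, called higher) and miR-27b-3p (0.42) turned to -0.93, -0.62 and -0.91, all called lower (limma adjusted p = 0.0159, 0.0274 and 0.0246). miR-148a-3p had 12928, 24769 and 153904 RPM in infarcted hearts and 21489, 26723 and 39017 RPM in uninfarcted hearts, with 4 infarcted hearts above and 4 below the uninfarcted range. In the miR-17/92 clusters, which drive proliferation, 5 of 9 tested arms rose (55.6%, against 61.7% of all 360) and none fell under RPM. With median-of-ratios scaling 1 rose (11.1%, against 23.9% over all) and 2 fell (22.2%, against 18.6%). miR-92a-3p had 86.9, 973 and 2145 RPM in infarcted hearts and 54.4, 82.7 and 149 RPM in uninfarcted hearts (2.61 ± 0.55), and miR-25-3p and miR-106b-3p rose by 1.76 and 1.65, while miR-19b-3p differed by -1.12 ± 0.57. Once sets entered the fit these 3 that rose turned to -0.02, -0.56 and -0.62.

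Members of one seed family did not always move together. The differences of the let-7 seed spanned 1.81 to 3.51 and those of the miR-125 seed 2.40 to 3.21, all called. Those of the miR-29 seed spanned -1.24 to 0.70 and those of the miR-25 and miR-92 seed -0.52 (miR-32-5p) to 2.61. The miR-181 seed gave 3 of 4 called higher, from 0.43 (miR-181c-5p) to 2.21. Across the 306 tested miRNAs with a RefSeq sequence (85% of 360), the difference went with base composition: Pearson's r between percent GC and the difference was 0.40 without the set (Spearman 0.43), and -0.03 within set A, as a description over miRNAs that share the same 20 libraries. Of the 28 miRNAs with at most 36% GC, 6 were called higher (21.4%, against 61.7% of all 360), with a median difference of -0.09. Of the 72 with more than 55% GC, 62 were called higher (86.1%), with a median of 1.69. Some of the 72, such as miR-210-5p at 68.2% GC, passed the filter through infarcted hearts alone, so a higher value was built in. The correlation and these classes were not worked out without such miRNAs. Within set A the same 2 classes had medians of 0.05 and 0.19. The let-7 and miR-499 sequences above are all below 46% GC. The part of GC content in the differences was not tested.

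Both arms of a hairpin come from the same precursor, so their balance depends on how a library is scaled only through the 1 RPM added to each arm. Of 86 hairpins with both arms tested, limma called 25 shifted (29.1%), 17 toward the 5p arm and 8 toward the 3p arm. Of the 25, miR-125a, miR-191, miR-222, miR-26b, miR-490, miR-503, miR-664 and miR-669a have an arm with no uninfarcted heart at 5 RPM. Such arms passed the filter through infarcted hearts alone, so the shifts of these hairpins are a description. miR-133a had the largest called shift toward 3p. Its log2 of 5p over 3p was -7.72, -6.70 and -2.75 in infarcted hearts and -3.90, -3.15 and -2.77 in uninfarcted hearts, a shift of -2.53 ± 0.57 (adjusted p = 0.00322). miR-676 shifted by -2.30 ± 0.47 and miR-222 by -1.63 ± 0.38, while miR-106b (-1.95 ± 0.86) and miR-455 (-1.72 ± 0.94) did not pass. The 5p arm of miR-222 was at most 3.66 RPM in uninfarcted hearts, near the 1 RPM added. miR-208a shifted by 3.34 ± 1.23 toward 5p, the largest of all. Its balance was -5.07, 1.67 and 4.45 in infarcted hearts and -4.79, -4.03 and -2.48 in uninfarcted hearts, so that the 5p arm was the commoner one in the middle infarcted heart and the rarer one in every uninfarcted heart. miR-27a (2.40 ± 0.69), let-7e (2.38 ± 0.47) and let-7i (2.07 ± 0.43) also shifted toward 5p, and miR-382 (1.83 ± 0.72) did not pass. For let-7i the 5p arm differed by 2.35 and the far rarer 3p arm by 0.28. The 1 RPM added understates differences of such low arms. With a mean of at least 50 RPM, which tests fewer rows, 5 hairpins were called. Given the library sets, no hairpin was called, 8 had an unadjusted p under 0.05 and the smallest adjusted p was 0.263.

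**Figure D5:**
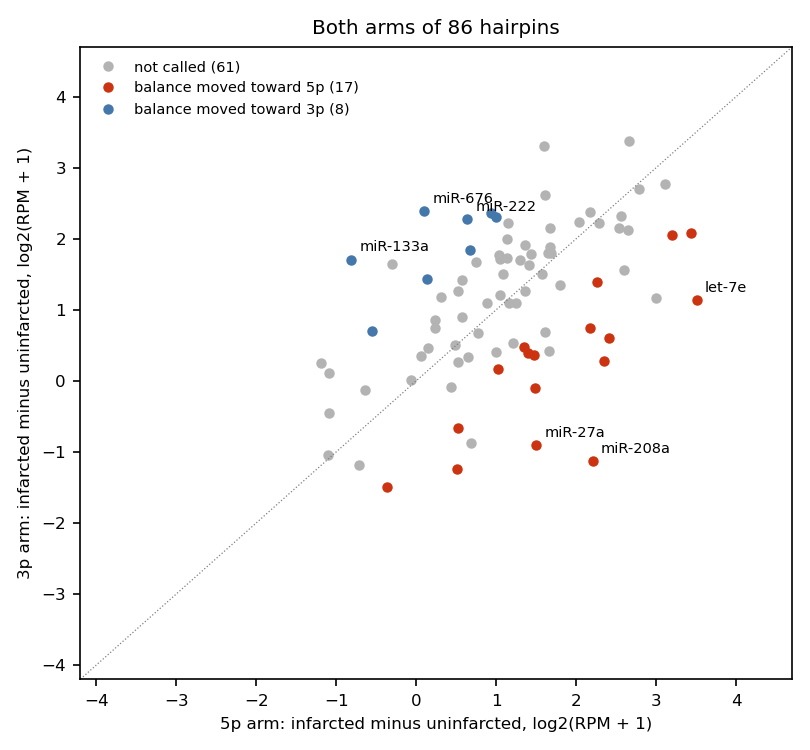
Each point is 1 of 86 hairpins, with the log2(RPM + 1) difference, infarcted minus uninfarcted, of its 5p arm on the horizontal axis and of its 3p arm on the vertical axis. On the dotted line both arms differ equally. The 17 hairpins whose balance moved toward 5p lie below it and the 8 that moved toward 3p lie above it, with miR-133a and miR-208a far off on either side.

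The infarction difference could be taken separately in unexposed and exposed hearts, from libraries that do not overlap. MI minus sham had a median of 0.94 and MI+CIH minus CIH had a median of 1.51. Across the 360 miRNAs Pearson's r between them was 0.82, as a description, with the library sets shared by both. let-7c-5p differed by 2.52 in unexposed and 3.58 in exposed hearts, and miR-101a-3p by -2.40 and -2.31. In the same order the differences were -0.74 and -2.16 for miR-499-5p and -1.08 and 1.13 for miR-21a-5p. The test of that difference, the interaction of infarction and exposure, called no miRNA in limma (0%), with 14 at an unadjusted p under 0.05 and a smallest adjusted p of 0.880. Calls were 0 in edgeR too, where 13 miRNAs had an unadjusted p under 0.05, and 0 in DESeq2, where 18 did. In the fit with sets limma again called none (0%), with 66 at an unadjusted p under 0.05 and a smallest adjusted p of 0.185. The smallest p-values were those of miR-21a-5p (interaction 2.21 ± 0.87), miR-451a (2.40 ± 0.95), miR-34c-5p (2.72 ± 1.09), miR-140-3p (2.08 ± 0.83) and miR-34b-3p (2.26 ± 0.93). miR-34b-3p had 1.38 to 12.5 RPM in MI hearts and 3 to 57.9 RPM in MI+CIH hearts, against 0.135 to 1.73 RPM in sham hearts and 0.417 to 2.71 RPM in CIH hearts.

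The exposure itself, taken over infarcted and uninfarcted hearts, also gave no call in limma (0%), with 7 miRNAs at an unadjusted p under 0.05 and a smallest adjusted p of 0.998. The edgeR test made 0 calls (7 miRNAs with an unadjusted p under 0.05), and DESeq2 made 1 call (11 such miRNAs), of miR-375-3p at 2.63 (adjusted p = 0.0165). In the fit with sets limma made 0 calls (0%), with 13 miRNAs at an unadjusted p under 0.05 and a smallest adjusted p of 0.153. The 5 smallest p-values were those of miR-375-3p (1.58 ± 0.58), miR-363-3p (1.55 ± 0.59), miR-451a (1.31 ± 0.52), miR-34b-3p (1.18 ± 0.51) and miR-182-5p (0.99 ± 0.45). miR-363-3p had 1.48 to 47.3 RPM in MI+CIH hearts and 0 to 11.3 RPM in CIH hearts, against 0.295 to 11.7 RPM in MI hearts and 0.0913 to 0.702 RPM in sham hearts. miR-210 is the textbook target of hypoxia-inducible factor. Its 3p arm, miR-210-3p, had 5.52, 17.5 and 69 RPM in infarcted hearts and 0.967, 4.83 and 11.9 RPM in uninfarcted hearts. The infarction difference was 1.798 ± 0.45 (limma adjusted p = 0.00226), against a median of 1.28 over all 360. The exposure difference was 0.14 and was not called. miR-210-5p, with no uninfarcted heart at 5 RPM, passed the filter through infarcted hearts alone. Its difference of 1.65 with infarction, and the 10 of 11 infarcted hearts above the uninfarcted range, are a description. Both arms had a set-term difference whose interval included 0. Their median infarction difference was 0.97 in unexposed and 2.38 in exposed hearts, against 0.94 and 1.51 over all 360. The median interaction of the arms was 1.41, against 0.63 over all 360, and no interaction was called.

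Of the rest of the miRNAs with the largest differences, miR-455-3p, made from an intron of the collagen gene Col27a1, had 10.4, 121 and 402 RPM in infarcted hearts and 5.4, 7.03 and 16.5 RPM in uninfarcted hearts. It rose by 3.31 ± 0.51 (limma adjusted p = 0.00016), with every infarcted heart but MI 2 above the uninfarcted range, and was not called with the set as a term, at 0.91 (adjusted p = 0.889, unadjusted p = 0.0344). miR-455-5p rose by 1.59, and miR-140-3p, a cartilage miRNA, rose by 1.42 and turned to -0.07 under TMM scaling. miR-574-5p rose by 3.11 ± 0.68, miR-744-5p by 2.83 ± 0.74 and miR-501-3p by 2.81 ± 0.72. miR-744-5p had 19.1, 239 and 833 RPM in infarcted hearts and 9.67, 13.2 and 30.2 RPM in uninfarcted hearts, with 7 of 11 infarcted hearts above the uninfarcted range. miR-192-5p, best known from gut, liver and kidney, fell by 1.25 with 82.4, 205 and 545 RPM in infarcted hearts and 206, 561 and 842 RPM in uninfarcted hearts, and miR-194-5p, which shares its transcript, differed by 0.28 ± 0.38. In set A without sham 1 the 5 entries called lower were miR-3470a, miR-3470b, miR-690, miR-7225-5p and the predicted novel_32, at -2.64, -2.14, -2.65, -2.70 and -2.91. None of the 5 was called over all hearts. miR-3470a had 0.221, 15.7 and 577 RPM in infarcted hearts and 6.12, 21.7 and 64.4 RPM in uninfarcted hearts, with 5 infarcted hearts above and 5 below the uninfarcted range.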

How the data were processed

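Small RNA libraries were made from flash-frozen hearts with Trizol and a NEBNext small RNA kit, per the labels' protocols. The deposited table gives each miRNA in RPM: its header labels the values TPM, but they carry no length and sum to 1000000 per library. Reads were aligned to mm10 with Bowtie and compared with DESeq 1.8.3, per the submitters' processing notes; the miRBase release and counting rules are not given in the sources used here. Each value was a whole multiple of what 1 read is worth in 100% of cases (tolerance 0.05), which gave back whole read counts behind the deposited RPM. One read was worth 0.0551 to 0.502 RPM, and a count of 0 allows up to 0.165 to 1.51 RPM (3 reads), covering counting error only. All columns matched a sample.

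The filter asked for 5 RPM or more in 4 or more libraries, and rows that passed were fitted with limma 3.58.1 in R 4.3.3 on log2(RPM + 1), with terms for infarction and hypoxia (17 residual and 6.11 prior degrees of freedom), Benjamini-Hochberg adjustment over 360 rows and a threshold of 0.05. Fold changes on that scale understate those of low miRNAs. Arm balance was tested on log2 of 5p over 3p (RPM + 1 each). Alternatives were other pseudocounts, filters and scalings, library weights, no hypoxia term, a replicate block, each library left out, the library set as a term (3 sets from hierarchical clustering, no labelled batch), set A alone, 12 repeated entries removed, edgeR 4.0.16 and DESeq2 1.42.0 on recovered reads. Summaries used Python 3.11.15 and scipy 1.17.1. The fit was tested on simulated data.

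The 12 largest rises and all 11 falls among called miRNAs averaging 50 RPM or more were named (the rule allowed 12 each way), with the 3 smallest p-values, the 10 most abundant, the 3 most abundant members of each list, the 5 smallest p-values for hypoxia and for the interaction, the 5 largest arm shifts each way, and a fixed set of heart miRNAs. Other miRNAs (exceptions within lists, those whose groups do not overlap, those called in set A without sham 1) were named after their values were seen. The comparison, its lists and the sets were chosen with earlier results of these data known. Sequences and coordinates are from RefSeq and the GRCm38 annotation, and 306 of the 360 rows matched a sequence.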

Additional observations from a re-analysis of the deposited data

Results flagged for a closer look

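In 31 of the values looked at over 112 miRNAs, 1 of the 9 uninfarcted hearts stood apart: its gap to the nearest other uninfarcted heart took a larger share of the group's whole range than Dixon's critical value. Chance alone marks a share of about 0.05 of groups in this way. Values are in RPM, with the nearest other uninfarcted heart after each.

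Sham 1 was far above the other uninfarcted hearts for miRNAs of the fibroblast cluster and of injured hearts. They were miR-199a-3p (1055 against 323), miR-199a-5p (590 against 126), miR-214-3p (198 against 35.5), miR-21a-5p (100570 against 28616), miR-34c-5p (124.7 against 34.5) and miR-199b-5p (61.5 against 18.2). The same heart was high for miRNAs of the Dlk1-Dio3 locus, miR-127-3p (833 against 411), miR-379-5p (715 against 178), miR-411-5p (566 against 155), miR-541-5p (13.5 against 7.25), miR-382-5p (7.03 against 2.38) and miR-136-3p (334 against 81.5). It was also high for let-7e-5p (151 against 72.6), let-7i-5p (2924 against 1591), miR-497a-5p (13.7 against 6.84), miR-140-3p (4026 against 1707) and miR-455-5p (79.8 against 26.2).

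Sham 4 was the highest uninfarcted heart for let-7d-5p (239 against 183), miR-144-5p (177 against 87.8), miR-25-3p (651 against 335), miR-3470a (64.4 against 27.7), miR-3470b (70.7 against 37.9), miR-106b-3p (187 against 97.1) and miR-15b-5p (67.4 against 27.8). CIH 3 was the highest for miR-206-3p (4.74 against 0.183), miR-375-3p (3.77 against 0.584) and miR-182-5p (21.3 against 7.37), and it was the lowest for miR-29a-3p (115 against 296), miR-126a-5p (488 against 1275) and miR-126b-3p (488 against 1275). CIH 1 was the highest for miR-145a-3p (198 against 149).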

How the results depend on the processing

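The counts under RPM were 222 miRNAs higher, 16 lower and 25 hairpins with a shifted arm balance. Between pseudocounts of 0.5 and 5 RPM, without the hypoxia term, with the mean of the 2 infarction differences, without repeated entries and without sham 1 and MI 2, each count stayed within 1.5 times these. Without the repeated entries, and with RPM taken anew, the counts were 208 higher, 20 lower and 24 hairpins. Without a filter 10 miRNAs were lower and 103 hairpins shifted, and with a mean of at least 50 RPM, which tests fewer rows, 97 miRNAs were higher and 5 hairpins shifted. Median-of-ratios scaling gave 86 higher and 67 lower, TMM scaling 65 and 80, edgeR 81 and 51, and DESeq2 118 and 53. Sample quality weights gave 32 lower, 58 hairpins and 2 calls for hypoxia, and DESeq2 gave 1 call for hypoxia. The library set as a term left 0 higher, 0 lower and 0 hairpins, as did set A alone. With the set as a term the counts were also 0 and 0 after median-of-ratios scaling and without sham 1 and MI 2, and set A without sham 1 gave 2 higher and 5 lower; these 3 settings were added after the data had been seen. Leaving out 1 library at a time gave 194 (without CIH 4) to 236 (without MI 2) higher, 8 (without MI 3) to 23 (without MI+CIH 1) lower, 17 (without MI 3) to 31 (without MI 2) hairpins, and 0 to 0 for hypoxia and the interaction; without MI 1 and without CIH 4 the lower count was 9. Interaction calls were 0 in every setting in which it was run. For counts and differences that changed, the cause was not tested.

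The replicate block gave 223 higher, 21 lower, 31 hairpins and 0 calls for hypoxia and for the interaction. The replicate numbers did not pair the libraries: deviations from the group means correlated above 0.1 in 10 of 24 same-numbered pairs, from -0.71 to 0.87. The arm balance was not run under other scalings, edgeR or DESeq2, and the interaction was not run in set A.

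Under median-of-ratios scaling the log2 difference turned its sign to -1.10 for miR-30a-5p, -0.80 for miR-30d-5p, -0.15 for miR-100-5p, -0.83 for miR-16-5p, -0.32 for miR-24-3p, -0.91 for miR-27b-3p, -0.93 for miR-378a-3p, -0.62 for miR-26a-5p, -0.78 for miR-29c-5p and -0.72 for miR-9-5p. Under TMM scaling the log2 difference turned its sign to -1.40 for miR-21a-5p, -1.26 for miR-30a-5p, -0.97 for miR-30d-5p, -1.40 for miR-451a, -0.013 for miR-145a-5p, -0.32 for miR-100-5p, -0.999 for miR-16-5p, -0.49 for miR-24-3p, -1.08 for miR-27b-3p, -1.17 for miR-194-5p, -0.073 for miR-140-3p, -1.09 for miR-378a-3p, -0.78 for miR-26a-5p, -0.95 for miR-29c-5p and -0.89 for miR-9-5p. With the library set as a term the log2 difference turned its sign to 0.11 for miR-133a-5p, 0.29 for miR-101a-3p, 0.30 for miR-101b-3p, -0.46 for miR-150-5p, -0.50 for miR-486a-5p, -0.51 for miR-486b-3p, -0.016 for miR-92a-3p, -0.56 for miR-25-3p, -0.032 for miR-125b-5p, 0.0038 for miR-192-5p, -0.46 for miR-486a-3p, -0.62 for miR-106b-3p, -0.56 for miR-15b-5p, -0.42 for miR-208a-5p and -0.28 for miR-155-5p. In set A alone the log2 difference turned its sign to 0.10 for miR-133a-5p, 0.29 for miR-101a-3p, 0.31 for miR-101b-3p, -0.47 for miR-150-5p, -0.51 for miR-486a-5p, -0.51 for miR-486b-3p, -0.022 for miR-92a-3p, -0.56 for miR-25-3p, -0.032 for miR-125b-5p, 0.00045 for miR-192-5p, -0.47 for miR-486a-3p, -0.62 for miR-106b-3p, -0.54 for miR-15b-5p, -0.43 for miR-208a-5p and -0.26 for miR-155-5p. In edgeR the log2 difference turned its sign to -0.90 for miR-30d-5p, -0.10 for miR-145a-5p, -0.30 for miR-100-5p, -0.51 for miR-24-3p, -0.99 for miR-27b-3p, -0.034 for miR-140-3p, -1.09 for miR-378a-3p, -0.75 for miR-26a-5p, -0.94 for miR-29c-5p and -0.84 for miR-9-5p. In DESeq2 the log2 difference turned its sign to -0.77 for miR-30d-5p, -1.12 for miR-451a, -0.053 for miR-100-5p, -0.31 for miR-24-3p, -0.84 for miR-27b-3p, -0.91 for miR-378a-3p, -0.58 for miR-26a-5p and -0.79 for miR-29c-5p.

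Set and infarction cannot be told apart in sets B and C. Set B holds the shallowest libraries, from 1991323 reads, where 1 read is worth up to 0.502 RPM, so differences near the floor of 3 reads were not detectable there. Time after infarction, infarct size and the piece of heart sampled are not given.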

Other observations

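The cell cycle family of miR-15 and miR-16 had a lower median than all miRNAs tested. Of 6 tested members 2 rose (33.3%, against 61.7% of all 360) and none fell under RPM, with a median of 0.50 against 1.28 over all. With median-of-ratios scaling 1 rose (16.7%, against 23.9% over all) and 2 fell (33.3%, against 18.6%), with a median of -0.81. miR-497a-5p had 5.11, 33.4 and 112 RPM (lowest, median and highest heart) in infarcted hearts and 3.03, 6.01 and 13.7 RPM in uninfarcted hearts, and rose by 2.34 (limma adjusted p = 0.000535). miR-15b-5p rose by 1.48, while miR-16-5p and miR-195a-5p differed by 0.49 ± 0.35 and 0.52 ± 0.47. In the X-linked miR-322, miR-351 and miR-503 cluster 3 of 5 rose under RPM (60%, against 61.7% of all 360). After median-of-ratios scaling 2 rose (40%, against 23.9%). Of the 5, 1 had no uninfarcted heart at 5 RPM, and of the other 4, 2 rose (50%, against 55.1% of the 287). miR-322-3p and miR-322-5p did not pass (0.74 ± 0.36 and 0.24 ± 0.44). In the miR-23, miR-27 and miR-24 clusters, found in most cell types, 5 of 9 rose (55.6%, against 61.7% of all 360) and none fell under RPM. After median-of-ratios scaling 1 rose (11.1%, against 23.9% over all) and 2 fell (22.2%, against 18.6%). miR-24-3p rose by 1.004, and miR-27a-3p, with 262, 1599 and 3928 RPM in infarcted hearts and 1283, 2868 and 7208 RPM in uninfarcted hearts, differed by -0.90 ± 0.46. Of 6 miRNAs best known from liver, gut and nervous tissue 2 rose (33.3%, against 61.7% of all 360) and 1 fell under RPM. After median-of-ratios scaling none rose (0%, against 23.9% over all) and 3 fell (50%, against 18.6%). miR-9-5p, a neural miRNA, differed by 0.60 ± 0.38.

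Of the 1185 rows left out by the filter, 99 reached 5 RPM in at least 1 heart. miR-3071-3p had 28.1, 40.99 and 49.4 RPM in MI 4, MI+CIH 6 and MI+CIH 7, the hearts of set C, and at most 4.56 RPM in uninfarcted hearts. miR-136-5p had 25.1, 37.4 and 46.9 RPM in the same hearts and at most 3.93 RPM in uninfarcted hearts. Each reached 5 RPM in those 3 hearts alone.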
